A study of Mus musculus with 69 samples.

Results

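The core loop of the circadian clock was followed in mouse kidney through 8 genes, Arntl, Clock, Per1, Per2, Per3, Cry1, Cry2 and Nr1d1. These genes were taken by symbol and not selected by their values, though earlier results of these data were known when the list was made. They are 8 of 24523 gene symbols with counts, and all 8 passed the filter on low counts. Counts came from RNASeq of perfused whole kidneys of female NZB/W F1 mice, a hybrid strain that spontaneously develops lupus nephritis, with 1 original library for each mouse. Young mice were 12 weeks old (n = 30). Nephritic mice (labelled nephritis) were 30 to 45 weeks old and were taken after the onset of heavy proteinuria but before end-stage renal failure (n = 27). Remission mice were 36 to 50 weeks old (n = 8). Each had been nephritic and had received 50 mg/kg of cyclophosphamide once, with 6 doses over 2 weeks of CTLA4Ig (200 µg), which blocks T cell costimulation, and anti-CD40L antibody (250 µg). Their kidneys were taken 8 weeks after treatment. Time is given as Zeitgeber time (ZT), in hours from lights on at ZT0, with lights off at ZT12. Young mice numbered 7, 4, 4, 7, 4 and 4 at ZT0, ZT4, ZT8, ZT12, ZT16 and ZT20, and nephritic mice 7, 4, 4, 6, 3 and 3. Remission mice were taken at ZT0 (n = 4) and ZT12 (n = 4). Each mouse gave a single time point, so a rhythm here is a pattern across mice. Nephritic mice were older than young mice, so that age and disease cannot be told apart in any comparison of these groups.

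The clock is a loop of transcription with delayed negative feedback. The Arntl protein, also called Bmal1, pairs with the Clock protein on E-box sequences and drives the Per and Cry genes and Nr1d1. The Per and Cry proteins accumulate with a delay and repress Arntl and Clock, while the Nr1d1 protein, also called Rev-erb alpha, represses Arntl through ROR response elements. D-boxes, bound by Dbp and related factors, form another arm that acts on Per genes. In the kidney the clock is known for its part in the daily variation of sodium handling and glomerular filtration.

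Stretches of promoter are shown for these genes because the motifs of the loop are the classes by which its members are usually grouped. By the RefSeq annotation of build GRCm38.p6, Arntl lies at chr7:113178471-113314126 and Per1 at chr11:69095108-69109965 on the plus strand. Clock lies at chr5:76209868-76305603, Per2 at chr1:91415977-91459351, Per3 at chr4:150997018-151044707, Cry1 at chr10:85131700-85185054, Cry2 at chr2:92403646-92434085 and Nr1d1 at chr11:98767932-98775377, all on the minus strand. The windows were RefSeq sequences of the same build that ran from 250 bases before to 50 bases after an annotated start. They covered 7 of the 8 genes in 11 windows, and Per2 had none. Both strands were searched for the E-box CACGTG, the E'-box CACGTT, the ROR element TAGGTCA and the D-box TTANGTAA, motifs that do not overlap one another in the stretches below. Motifs are in capitals, and each position is that of the motif's first base from the start site. AACGTG is CACGTT read on the other strand.
Arntl, chr7:113207530-113207559, plus strand, ROR element at +31: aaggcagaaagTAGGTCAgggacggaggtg
Per1, chr11:69098769-69098808, plus strand, E-box at -166: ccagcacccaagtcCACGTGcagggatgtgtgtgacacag
Per3, chr4:151044806-151044880, minus strand, D-boxes at -205 and -158: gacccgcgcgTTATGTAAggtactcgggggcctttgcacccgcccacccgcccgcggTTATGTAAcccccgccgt
Cry1, chr10:85185100-85185139, minus strand, E'-box at -79 and E-box at -60: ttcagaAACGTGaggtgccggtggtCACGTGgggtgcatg
Cry2, chr2:92434210-92434249, minus strand, E'-box at -166: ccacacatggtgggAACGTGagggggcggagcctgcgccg
Nr1d1, chr11:98775383-98775422, minus strand, E'-box at -28: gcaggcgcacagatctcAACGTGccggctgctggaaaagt
None of the 4 motifs was found in the windows of Clock. Among all 32851 windows of the same length, 7.15% held the E-box, 4.68% the E'-box, 2.61% the ROR element and 2.32% the D-box. A match is a description of the letters only.

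Library depth was 25257530 to 35744843 counts in young mice, 26596500 to 48075977 in nephritic mice and 13311278 to 21849912 in remission mice. Libraries of young and nephritic mice came in 2 RNASeq sets, which entered every fit that compared them. Remission libraries all came from a later set, which also held the 4 repeat libraries of young and nephritic mice. The repeats did not enter the main fits, so batch and group cannot be told apart there for remission mice. In nephritic against young kidneys all 6 leukocyte markers were higher over the day (log2 difference 2.05 to 5.11), as were the injury markers Lcn2 (4.95) and Havcr1 (2.03), and all 4 proximal tubule markers were lower (-0.94 to -0.62). The summed level of the leukocyte markers was 11.8 to 59.2 CPM (counts scaled to a library of fixed size) in young, 37.9 to 2805.1 in nephritic and 95.2 to 968.1 in remission mice, and that of the proximal tubule markers was 7068.5 to 12335.7, 1180.3 to 9226.7 and 4770.3 to 7441.3. No marker was at 0 in every mouse. The part of cell composition in the results on the clock genes was not tested, and in whole tissue fewer cells of a type cannot be told apart from less RNA per cell. Several libraries stood apart from their labels in the clock genes, and only 15 of 27 nephritic mice lay nearest to their own label, as described with the nearest time points. Of these, nephritic mouse RX10RU, labelled ZT8, and remission mouse s9, labelled ZT12, are given with and without their values. They were picked out by the same clock genes, so a test without either mouse is not independent of that choice.

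In young mice every member of the loop varied with time of day (8 of 8), where 39.8% of the 16521 genes tested did. The adjusted p from edgeR's quasi-likelihood test ran from 1.85e-19 for Arntl to 2.46e-07 for Per1. Among the activators, Arntl was between 30.2 and 49.9 CPM at ZT0 (median 36.01, n = 7). It was 13.9, 15.7, 18.1 and 18.97 CPM at ZT4. At ZT8 it was 1.14, 1.14, 1.15 and 1.17 CPM. The 4 mice at ZT8 were thus below every other young mouse and spread by less than 0.1 CPM. At their depth of 25550735 to 31271479 counts these values rest on few reads, so nothing is read from the narrow spread. Arntl was 2.14 to 4.76 CPM at ZT12 (median 2.87, n = 7), then 22.2, 22.5, 23.1 and 23.3 at ZT16 and 38.0, 40.6, 45.2 and 50.3 at ZT20. The mean at the highest time point was 37.9 times that at the lowest, the widest ratio among the 8 genes. This ratio has the low ZT8 mean as its base. Clock, which encodes the partner of the Arntl protein, was also lowest at ZT8, with a far smaller range. It was 35.4, 36.8, 37.3 and 39.4 CPM at ZT8 and 65.6, 69.1, 69.2 and 102 at ZT20, and it was highest on average at ZT0, with 64.3 to 103 (median 77.4, n = 7). Its ZT0 mean was 2.13 times its ZT8 mean.

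The Period genes, whose products carry the negative arm, were high around the change from light to dark. Per2 was 12.5, 13.1, 13.8 and 14.995 CPM at ZT4 and 53.1, 54.0, 57.7 and 65.4 at ZT8. It reached 102 to 124 CPM at ZT12 (median 106, n = 7) and was 62.1, 62.9, 65.1 and 67.3 at ZT16. The highest and lowest means of Per2 were 8.10-fold apart. Per3 was already at 77.6, 83.0, 87.0 and 93.9 CPM at ZT8, stayed at 68.5 to 89.2 at ZT12 (median 73.0, n = 7) and had fallen to 14.9, 15.3, 16.9 and 16.999 by ZT20. Per1 had the widest spread among mice of 1 time point. At ZT8 its values were 51.6, 75.2, 83.7 and 120 CPM, at ZT20 they were 28.3, 32.5, 51.9 and 102, and at ZT12 they were 119 to 168 (median 146, n = 7). Per1 was lowest at ZT4, with 12.5, 21.4, 22.5 and 23.03 CPM, and its means spanned 7.34-fold.

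Cry1 and Cry2 encode the repressors that bind the Per proteins, and they ran on different schedules. Cry1 was 2.41, 2.60, 2.67 and 2.88 CPM at ZT4 and 4.28, 4.30, 4.40 and 5.03 at ZT8. It was 22.6 to 31.0 CPM at ZT12 (median 23.04, n = 7), 29.7, 29.9, 32.2 and 33.8 at ZT16 and 30.6, 31.2, 31.4 and 31.9 at ZT20. The high level of Cry1 therefore lasted through the dark period, after all 3 Period genes had begun to fall. Cry2 had its lowest values at ZT0, 18.7 to 27.7 CPM (median 21.7, n = 7), and its highest from ZT8 to ZT16, where the 15 young mice lay between 41.6 and 56.3. Nr1d1, the repressor of Arntl, was 103, 107, 108 and 108 CPM at ZT4 and 87.8, 107, 108 and 123 at ZT8. It was 23.4 to 44.01 CPM at ZT12 (median 30.5, n = 7) and 5.55, 5.65, 6.10 and 7.75 at ZT16. Nr1d1 and Cry1 had ratios of 17.1 and 11.9 between their highest and lowest means. Cry2 had a ratio of 2.25.

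**Figure D1:**
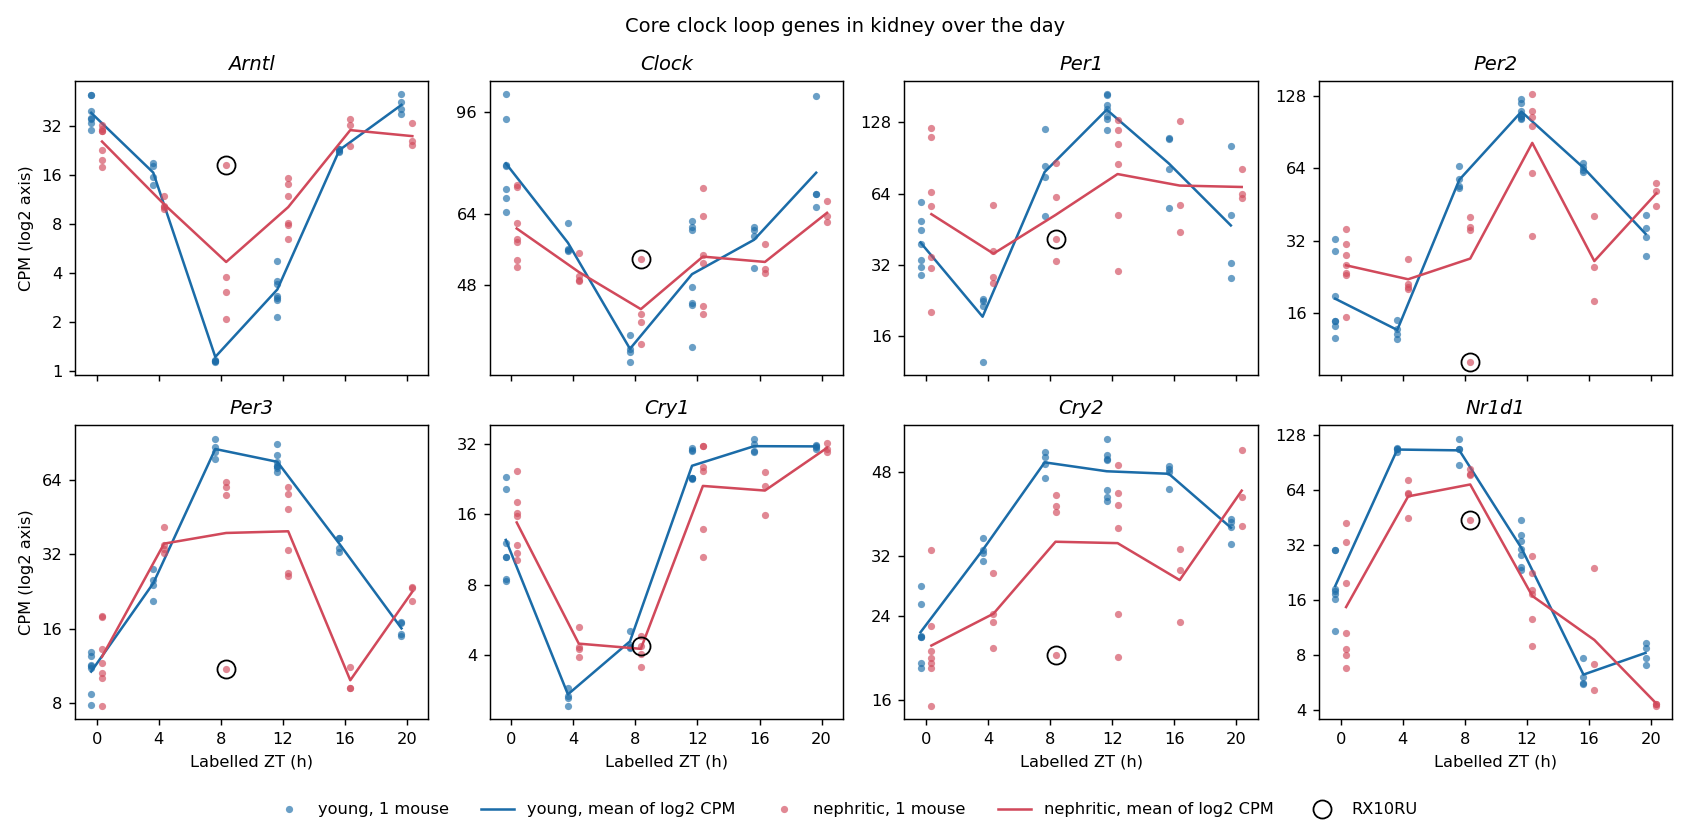
Level of each clock gene in CPM (log2 axis) against labelled ZT in hours, with 1 point for each young (blue) and nephritic (red) mouse and a line through the mean log2 CPM of each time point; the ring marks nephritic mouse RX10RU. In young mice Arntl falls to 1.14 to 1.17 CPM at ZT8, where the nephritic mice lie at 2.08 to 18.4 CPM.

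The order of the peaks was measured with a cosine of 24 h fitted to log2 CPM, whose acrophase is the fitted time of the highest level. In young mice the order was Nr1d1 at ZT 6.38 ± 0.15 (SE, n = 30), Per3 at 10.61 ± 0.17, Cry2 at 12.16 ± 0.35, Per2 at 13.19 ± 0.26 and Per1 at 13.41 ± 0.58. Cry1 followed at 16.99 ± 0.16, then Arntl at 21.33 ± 0.26 and Clock at 21.35 ± 0.36. The repressor of Arntl thus came first in the light period, the Per genes and Cry2 around lights off, Cry1 in the dark and the activators late in the dark. Of the neighbours in this order, 2 pairs could not be told apart. Arntl and Clock were 0.03 h apart (95% interval -0.66 to 0.71), and Per2 and Per1 were 0.22 h apart (-0.87 to 1.30). Cry2 and Per2 differed by 1.04 h (0.25 to 1.82), and the other gaps were 1.55 h or longer. The cosine and the RNASeq set together accounted for 69.8% to 96.5% of the variance in young mice.

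The antiphase relation to Arntl was read as a lag, the hours from the acrophase of Arntl to that of the other gene. Exact antiphase would be 12 h. In young mice Per3 came 13.28 h after Arntl (95% interval 12.79 to 13.78), which was the nearest to antiphase. Cry2 followed at 14.83 h, Per2 at 15.86 h and Per1 at 16.08 h, while Nr1d1 led the opposite side at 9.05 h (8.43 to 9.67). Cry1 came at 19.66 h. The interval of the lag held 12 h for none of the 7 genes in young mice, and Arntl and Clock were in phase.

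In nephritic mice 7 of the 8 genes varied with time of day, where 21.6% of the 16872 genes tested did. Per1 did not pass (adjusted p = 0.0842 by edgeR), and Cry2 passed narrowly (0.0373). Arntl was 17.9 to 32.7 CPM at ZT0 (median 30.0, n = 7) and 9.83, 10.2, 10.3 and 11.9 at ZT4. At ZT8 it was 2.08, 3.06, 3.76 and 18.4 CPM, the last in mouse RX10RU. The 3 other mice at ZT8 still held the lowest Arntl values of the group, and each was above all 4 young mice. At ZT12 Arntl was 6.44 to 15.3 CPM (median 10.04, n = 6), again with no overlap with young mice, and it was 24.1, 32.4 and 35.5 at ZT16 and 24.7, 25.8 and 33.5 at ZT20. By label, Arntl was above all young mice at ZT16 and below all of them at ZT20. The ZT20 difference was not called (log2 difference, nephritic minus young, -0.67, adjusted p = 0.293, edgeR). No nephritic mouse of either label lay nearest to that label. Arntl in the trough at ZT8 was higher than in young mice. Its lowest mean, at ZT8, was 6.83 CPM with RX10RU and 2.97 without it, against 30.6 at ZT16, its highest.

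Per3 in nephritic mice was 32.4, 33.5, 34.8 and 41.1 CPM at ZT4, above all young mice, and 11.1 (RX10RU), 55.6, 59.7 and 62.6 at ZT8, below all young mice. It was 26.2 to 59.9 CPM at ZT12 (median 41.0, n = 6) and 9.21, 9.26 and 11.2 at ZT16. At ZT20 it stood at 20.7, 23.5 and 23.5 CPM. By label, Per3 was therefore lower at ZT16 than at ZT12 and higher again at ZT20. Young mice at ZT16 still held 32.8 to 37.3 CPM. Per2 was 20.2, 20.6, 21.2 and 27.01 CPM at ZT4, 10.1 (RX10RU), 35.4, 36.5 and 40.3 at ZT8 and 33.6 to 130 at ZT12 (median 99.9, n = 6). It then read 18.04, 24.9 and 40.5 CPM at ZT16 and 44.5, 51.7 and 55.4 at ZT20. As with Per3, the nephritic mice at ZT16 were below and those at ZT20 above all young mice of the same label. These are patterns by label only. No nephritic mouse labelled ZT16 or ZT20 lay nearest to its own label, as described with the nearest time points.

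Per1 was 30.1 to 131 CPM in nephritic mice at ZT12 (median 94.5, n = 6) and 20.3 to 121 at ZT0 (median 56.9, n = 7), so that these times overlapped almost in full. Cry1 was 3.92, 4.22, 4.29 and 5.24 CPM at ZT4 and 3.56, 4.03, 4.37 and 4.82 at ZT8. It was 29.6, 30.6 and 32.3 CPM at ZT20, where the young mice lay at 30.6 to 31.9. Cry1 thus kept most of its range, with 7.35-fold between its highest and lowest means. Cry2 was 20.6, 23.3, 24.3 and 29.5 CPM at ZT4, below all young mice, and 23.3, 29.9 and 33.0 at ZT16, also below them. Nr1d1 was 45.1, 60.8, 61.5 and 72.7 CPM at ZT4 and 43.8 (RX10RU), 77.3, 78.5 and 84.1 at ZT8, below all young mice at both times. It was 5.17, 7.21 and 24.0 CPM at ZT16 and 4.23, 4.30 and 4.32 at ZT20. Clock ran from 38.0, 41.5, 42.9 and 53.4 CPM at ZT8 to 61.8, 63.3 and 67.4 at ZT20, with RX10RU the highest at ZT8.

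Whether the daily pattern itself differed between nephritic and young mice was asked with the interaction of group and time point. The rhythm differed for 3 of the 8 genes, Arntl (adjusted p = 3.96e-06, edgeR), Per3 (0.000164) and Per2 (0.00906), where 6.27% of the 17521 genes tested differed. Per1 (0.0634), Cry2 (0.0842), Clock (0.0845), Nr1d1 (0.115) and Cry1 (0.133) did not pass. Within RNASeq Set 2 alone 7 of the 8 passed, all but Per1 (0.0858), against 9.89% of genes. With the interaction limited to the fitted cosine, 2 of 8 passed, Arntl (0.000601) and Per3 (0.0205), against 0.691% of genes. The 3 nephritic mice at ZT16 and the 3 at ZT20 lay away from their labels, as described with the nearest time points. Without these 6 mice and RX10RU the rhythm differed for Arntl, Per1 (0.0337), Per2 (0.03) and Per3, against 7.93% of genes, and the cosine, fitted to ZT0 to ZT12 alone in nephritic mice, for Arntl (0.00218) and Per3 (0.00118), against 2.48%. Arntl and Per3 thus passed in both tests with and without those mice.

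The level over the whole day was lower in nephritic mice for Cry2 (log2 difference, nephritic minus young, -0.33, SE 0.08, adjusted p = 0.000401), Nr1d1 (-0.47, SE 0.16, 0.00979) and Per3 (-0.37, SE 0.15, 0.0247). These 3 of 8 compare with 62.1% of all genes that differed in level, in either direction, so that the share of clock genes was below this background. Arntl had a difference of 0.36 (SE 0.22, 0.143) and Clock of -0.13 (0.0631). Within Set 2 alone only Cry2 passed.

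The differences at single times of day show where the patterns parted. At ZT0 2 of 8 genes were lower in nephritic mice, Arntl (log2 difference -0.60, SE 0.24, adjusted p = 0.0418) and Clock (-0.39, SE 0.11, 0.00441), where 39.5% of genes differed. The call of Arntl was lost in 29 of 57 fits that left out 1 mouse. Within Set 2 alone neither gene passed (Arntl -0.35, 0.43, and Clock -0.12, 0.427), and Per2 (1.01, 0.0014) and Cry1 (0.39, 0.0143) were higher instead, against 31.5% of genes. The differences at ZT0 thus depended on the set. At ZT4 Cry1 was higher (0.67, 0.0455) and Cry2 lower (-0.50, 0.043), against 30.3% of genes. Without RX10RU, whose values enter the shared estimate of spread, 5 genes passed at ZT4, with Arntl lower (-0.68, 0.015) and Per2 (0.69, 0.046) and Per3 (0.51, 0.0291) higher as well, against 28.5%. At ZT8 Arntl was higher (2.53, SE 0.38, 1.7e-05) and Per3 lower (-0.88, SE 0.25, 0.0383), against 3.66% of genes. Without RX10RU the difference in Arntl at ZT8 was 1.38 (0.00252) and that in Per3 was -0.51 (0.325), against 0.885%. Arntl in the nephritic trough was thus raised with or without this mouse, by a smaller amount without it.

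At ZT12, the start of the dark period, 5 of 8 genes differed, against 50.0% of all genes. Arntl was higher (1.73, SE 0.27, adjusted p = 8.91e-07 by edgeR), and Per3 (-0.91, 0.000249), Per1 (-0.91, 0.0145), Nr1d1 (-0.80, 0.0252) and Cry2 (-0.47, 0.0092) were lower. This share was near that of all genes. Within Set 2 alone Arntl (1.99), Clock (0.47, 0.00191) and Cry1 (0.30, 0.0484) were higher and Per3 (-0.68, 0.0346) and Nr1d1 (-1.11, 0.0092) lower, against 29.3%, while Per1 (-0.51, 0.308) and Cry2 (-0.30, 0.112) did not pass. Higher Arntl and lower Per3 and Nr1d1 at ZT12 were thus called in both fits. At ZT16 Per3 (-1.86, SE 0.29, 5e-06), Per2 (-1.24, SE 0.33, 0.00584) and Cry2 (-0.75, 0.00891) were lower, against 17.7% of genes. These are calls by label, as no nephritic mouse labelled ZT16 or ZT20 lay nearest to its own label. Without nephritic mouse HIL5RU, Per1 and Cry2 no longer passed at ZT12, and without nephritic mouse RX7LL only Per3 passed at ZT16. At ZT20 none of the 8 genes passed in edgeR, where 5.48% of genes did. At an unadjusted p under 0.05 it was 1 gene in edgeR, 1 in DESeq2 and 2 in limma, and neither other tool called any of the 8.

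Ranges of the single mice, with no model and no set covariate, gave other counts than the fits. At ZT0 the young and nephritic ranges overlapped for all 8 genes, where 6.44% of genes had ranges that did not overlap. At ZT4 they did not overlap for any of the 8, with Arntl, Clock, Cry2 and Nr1d1 below and Per1, Per2, Per3 and Cry1 above the young range, and 43.8% of all genes were also apart. At ZT8 5 genes were apart (15.7% of all genes), at ZT12 2 (17.7%), at ZT16 5 (34.2%) and at ZT20 4 (19.8%). Arntl was above the young range at ZT8, ZT12 and ZT16 and below it at ZT4 and ZT20. Per3 was above at ZT4 and ZT20 and below at ZT8, ZT12 and ZT16, the reverse of Arntl at all 5 times. No nephritic mouse labelled ZT16 or ZT20 lay nearest to its own label, and the ZT8 range took in RX10RU. Arntl and Per3 were opposed across young mice, so their opposite directions at these times are not separate observations.

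In nephritic mice the 8 acrophases came in the same order as in young mice, with wider errors. Nr1d1 peaked at ZT 6.37 ± 0.36 (SE, n = 27), Per3 at 8.40 ± 0.79, Cry2 at 14.02 ± 1.59, Per2 at 14.23 ± 1.23 and Per1 at 16.04 ± 1.36. Cry1 peaked at 17.66 ± 0.37, Arntl at 19.95 ± 0.47 and Clock at 20.24 ± 0.85. Of the neighbours, Cry2 and Per2 (0.21 h, 95% interval -2.63 to 3.04), Per2 and Per1 (1.81 h, -1.13 to 4.75), Per1 and Cry1 (1.63 h, -1.10 to 4.35) and Arntl and Clock (0.29 h, -1.21 to 1.79) could not be told apart. The middle of the order, from Cry2 to Cry1, was therefore not resolved in nephritic mice. The cosine and the RNASeq set together accounted for 32.7% to 77.6% of the variance, less at both ends of the range than in young mice.

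The shifts between groups did not run one way. Arntl peaked 1.38 h earlier in nephritic mice (nephritic minus young -1.38 h, 95% interval -2.46 to -0.30, permutation p = 0.00177, 100000 exchanges of diagnosis within time point and set, two-sided), and Per3 peaked earlier too (-2.21 h, -3.83 to -0.58, p = 0.00485). Nr1d1 differed by -0.01 h (-0.79 to 0.77), an interval that leaves out shifts of 1 h or more in either direction. Cry1 differed by 0.68 h (-0.14 to 1.49, permutation p = 0.00324), Per1 by 2.63 h (-0.35 to 5.60, 0.0283), Cry2 by 1.87 h (-1.40 to 5.14, 0.113), Per2 by 1.04 h (-1.49 to 3.56, 0.293) and Clock by -1.11 h (-2.97 to 0.75, 0.108). For Cry1 and Per1 the interval of the fit held 0 while the permutation p was under 0.05, so these calls depend on the test. The exchanges mix 2 groups of unlike spread about the fit. For Per2 the residual SD was 0.34 log2 CPM in young and 0.77 in nephritic mice. A permutation p here is therefore not a test of the phase or lag alone. Without RX10RU alone the shift was -1.42 h for Arntl and -2.37 h for Per3, with intervals that left out 0. Without the nephritic mice of ZT16 and ZT20 as well, nephritic mice cover ZT0 to ZT12 only, and a peak in the dark is then extrapolated to times with no nephritic mouse, so that nothing is read from those peak times.

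The amplitude of the cosine, which is the log2 difference from the mean to the peak, had a lower estimate in nephritic mice for all 8 genes. It was 2.52 in young and 1.38 in nephritic mice for Arntl (permutation p = 1e-05, the smallest these exchanges can give), 1.402 and 0.70 for Per2 (2e-05) and 0.47 and 0.23 for Clock (0.00033). For Per3 it was 1.52 and 0.92 (permutation p = 0.00104), for Per1 1.12 and 0.50 (0.00312), for Cry1 1.89 and 1.51 (0.00428) and for Cry2 0.54 and 0.32 (0.01). Nr1d1 had 2.25 and 1.92 (permutation p = 0.105), and its difference of -0.34 had an interval of -0.84 to 0.17. The intervals of the difference left out 0 for Arntl, Clock, Per1, Per2 and Per3, and held it for Cry1 (-0.80 to 0.04), Cry2 (-0.48 to 0.02) and Nr1d1. As a peak-to-trough fold, Arntl went from 32.9 in young to 6.74 in nephritic mice. Without the nephritic mice of ZT16 and ZT20 and RX10RU only Per3 (-0.31) kept an interval that left out 0. That cosine also rests on ZT0 to ZT12 alone in nephritic mice. An amplitude taken across mice is also lowered where mice of 1 label are at different phases, and these data, with 1 time point a mouse, cannot tell these apart.

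**Figure D2:**
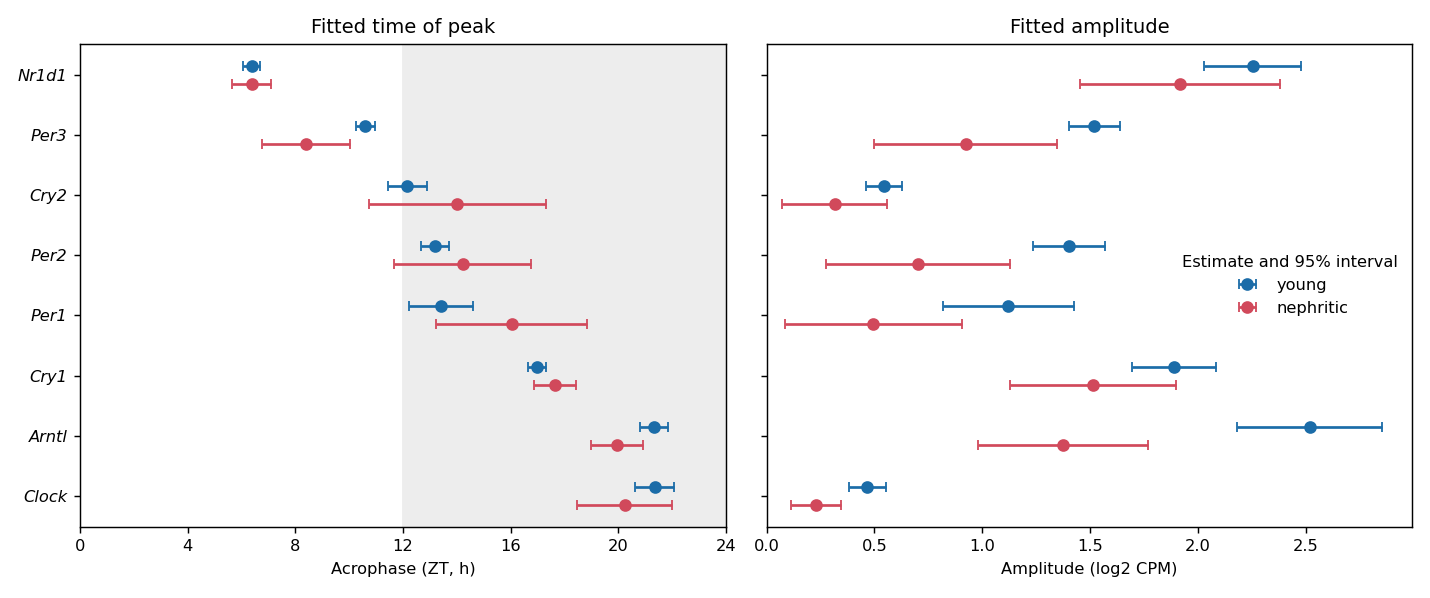
Acrophase (left, ZT in hours, dark period in grey) and amplitude (right, log2 CPM) of the fitted 24 h cosine for each gene, with points for the estimates and bars for 95% intervals in young (blue, n = 30) and nephritic (red, n = 27) mice. Arntl moves from ZT 21.33 to 19.95 and from an amplitude of 2.52 to 1.38, while Nr1d1 stays at ZT 6.38 and 6.37.

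Relative to Arntl the fitted spacing by label differed in nephritic mice for part of the loop. The lag from Arntl was longer in nephritic than in young mice for Per1, at 20.09 h (difference 4.01 h, 95% interval 0.88 to 7.13, permutation p = 0.00041), for Cry1, at 21.71 h (2.05 h, 0.77 to 3.34, 0.00011), and for Nr1d1, at 10.42 h (1.37 h, 0.08 to 2.66, 0.0164). Per2 lagged Arntl by 18.28 h (difference 2.41 h, -0.26 to 5.09, permutation p = 0.002) and Cry2 by 18.07 h (3.24 h, -0.13 to 6.61, 0.00173). Their intervals held 0, so these calls too depend on the test. Clock stayed in phase with Arntl (difference 0.27 h, permutation p = 0.607). Per3 lagged by 12.45 h (11.13 to 13.77), with a difference of -0.83 h from young mice (permutation p = 0.239). In nephritic mice Per3 was the one gene whose lag had an interval that held 12 h, and that interval was wider than in young mice. Every lag takes in the shift of -1.38 h in Arntl itself, and for Cry1 the interval of its own shift held 0. The nephritic fits took in RX10RU and the mice labelled ZT16 and ZT20, none of which lay nearest to its own label. Those of ZT16 and ZT20 are all the nephritic mice after ZT12, so the spacing is by label only. With each mouse left out in turn, the nephritic lag was 19.61 to 20.48 h for Per1 and 21.55 to 21.90 h for Cry1. For Nr1d1 it was 10.18 to 10.64 h, and the mice left out include RX10RU.

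Correlations between the genes were taken across the mice of each group, which share their times of day. In young mice 15 of the 28 pairs had a positive and 13 a negative Pearson r across the 30 mice, and 21 pairs had a permutation p under 0.05, unadjusted. The most negative was Arntl with Per3 (r = -0.92, permutation p = 1e-05, Spearman rho = -0.88). It was -0.91 without the 2 mice farthest from the median of Arntl and -0.90 within Set 2. Arntl and Per3 were thus near mirror images across young mice. The most positive was Per3 with Cry2 (r = 0.88), followed by Per1 with Per2 (0.86) and Arntl with Clock (0.85, rho = 0.89). Clock was negatively related to Per3 (-0.81) and Cry2 (-0.77), and Cry1 to Nr1d1 (-0.83). Arntl and Cry1, whose peaks were 4.34 h apart, had r = 0.22 (permutation p = 0.241).

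In nephritic mice 16 pairs were positive and 12 negative, and 14 had a permutation p under 0.05, with a median absolute r of 0.42 against 0.59 in young mice. Arntl and Per3 remained opposed (r = -0.78, permutation p = 1e-05, rho = -0.77), as did Cry1 and Nr1d1 (-0.88), and Arntl and Clock remained together (0.75). Other antiphase relations were weak. Arntl with Per2 had r = -0.64 (permutation p = 0.00031) in young and -0.19 (0.33) in nephritic mice, Arntl with Per1 -0.56 and 0.08, and Arntl with Cry2 -0.70 and -0.26. Clock with Per3 had -0.81 and -0.28, and Clock with Cry2 -0.77 and -0.03. Arntl with Cry1 had the larger r in nephritic mice, 0.60 (permutation p = 0.00104). In all, 23 pairs had the same sign in both groups and 5 the opposite sign, and the absolute r was larger in young mice for 19 of 28. The difference of r between the groups was not tested.

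**Figure D3:**
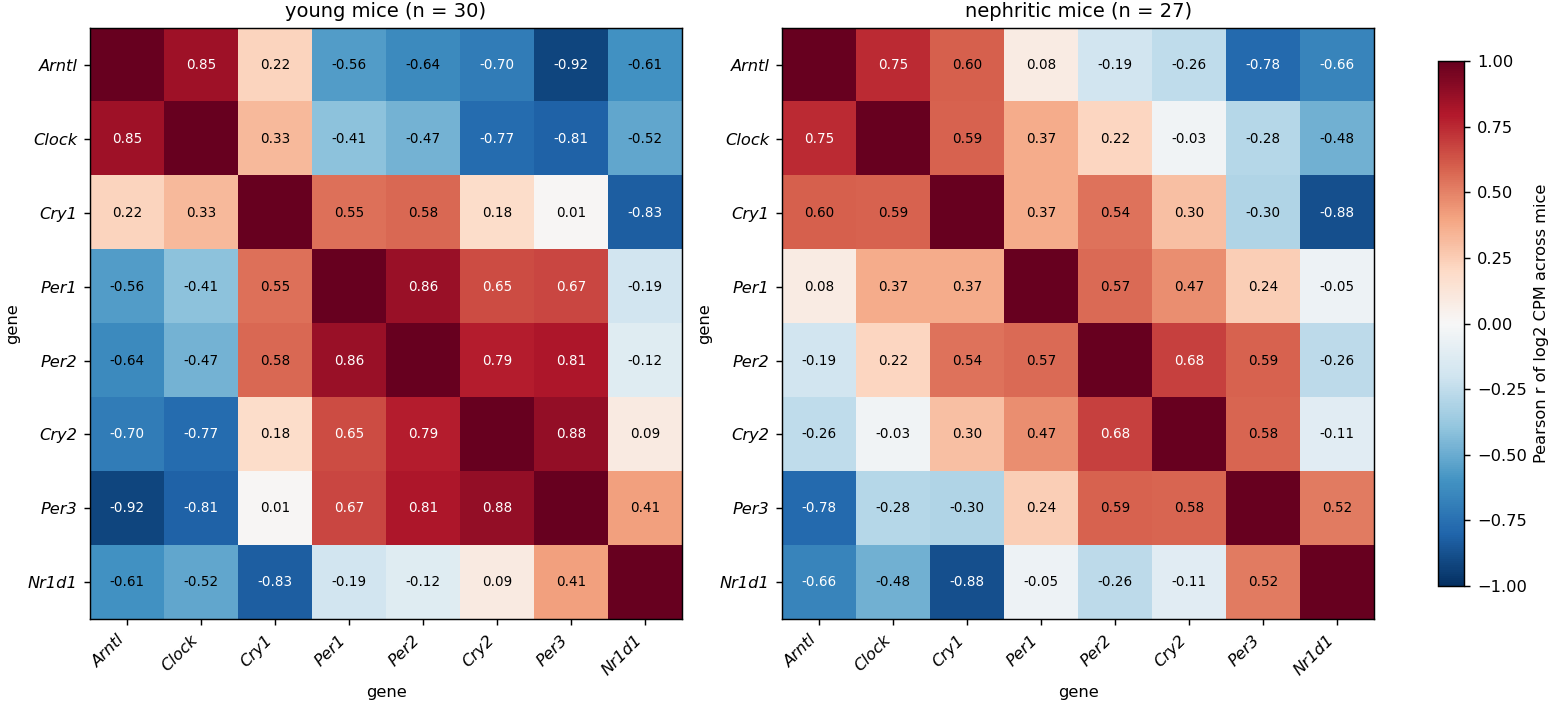
Pearson r of log2 CPM for each pair of clock genes across all young (n = 30) and all nephritic (n = 27) mice, on a colour scale from -1 to 1. Arntl and Per3 reach -0.92 in young and -0.78 in nephritic mice. Within time points and with the RNASeq set removed, which is not drawn, the median absolute r is 0.20 and 0.33.

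Within time points, after the mean of each and the difference between RNASeq sets were removed, the relations were smaller. The median absolute r was 0.20 in young and 0.33 in nephritic mice. In young mice Per2 with Cry1 (r = 0.75), Clock with Cry2 (-0.60) and Per2 with Per3 (0.54) stood out. In nephritic mice Arntl with Per3 had -0.74 within time points, and -0.03 without RX10RU. Arntl with Per2 went from -0.50 to 0.22 without it. The antiphase of Arntl with Per genes among nephritic mice of 1 label thus rested on a single mouse. Other relations within time points did not rest on it to that extent, such as Cry1 with Nr1d1 (-0.68, and -0.69 without RX10RU), Per2 with Cry2 (0.74 and 0.61), Per2 with Per3 (0.82 and 0.58) and Arntl with Clock (0.64 and 0.49).

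The same question was put to every gene tested by adding the level of 1 gene to a fit with time point and set. None of the other 7 members tracked Arntl within time points in young mice, where 0% of 16520 genes did and 0 of 7 members had an unadjusted p under 0.05. None did so in nephritic mice either, where 0.0178% of genes did and 2 of 7 had an unadjusted p under 0.05. Per3 had a slope of -0.63 on Arntl there (adjusted p = 0.387, edgeR), and -0.02 without RX10RU. Per2 was tracked by Cry1 in young mice (slope 0.63, adjusted p = 0.0277), against 0.0484% of genes, but within Set 2 alone the slope was 0.19 and no member passed. In nephritic mice Per3 (0.81, 0.0123) and Cry2 (0.57, 0.0194) tracked Per2, against 2.25% of genes. Without RX10RU this held for 0% of genes and for none of the members, of which 5 of 7 had an unadjusted p under 0.05. The slope of Cry2 was 0.58 without it and that of Per3 0.41. Without the nephritic mice of ZT16 and ZT20 as well, Cry2 (0.78, adjusted p = 0.0176, edgeR) and Per1 (1.17, 0.0403) tracked Per2, against 8.40% of genes. The slope of Cry2 was thus positive in each of these fits, while its call was not kept in all.

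Injury differed widely among nephritic mice, and Lcn2, a marker of tubular injury, was used in the same way. Cry2 (slope -0.13 log2 CPM for each log2 of Lcn2, adjusted p = 0.000856, edgeR) and Nr1d1 (-0.17, 0.0362) were lower where Lcn2 was higher, where 48.1% of all genes tracked Lcn2. Without RX10RU the genes that passed were Cry2 (-0.11, 0.00158) and Arntl (-0.09, 0.0215), against 46.8%. Cry2 thus passed in both fits, with a share of members below that of all genes.

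Each mouse was also set beside the mean of the young mice at each time point, as a distance over the 8 genes in log2 CPM with the mouse itself left out. In young mice 29 of 30 lay nearest to their own label, and the other, a ZT0 mouse, lay nearest to ZT20. In nephritic mice 15 of 27 did. This was 6 of 7 at ZT0, 4 of 4 at ZT4 and 3 of 4 at ZT8, but 2 of 6 at ZT12 and 0 of 3 at both ZT16 and ZT20. Of the nephritic mice labelled ZT16, 2 lay nearest to young ZT20 and 1 to young ZT0, and all 3 labelled ZT20 lay nearest to young ZT16. None of these 6 mice lay nearest to its own label. RX10RU, labelled ZT8, lay at 2.32 from young ZT4 and at 5.90 from young ZT8. With each group centred on its own mean, 17 of 27 nephritic mice were nearest to their label, with 5 of 7 at ZT0 and 5 of 6 at ZT12, and still 0 of 3 at both ZT16 and ZT20. The mismatch at ZT12 was thus mostly lost with centring and that at ZT16 and ZT20 was not. No label was changed on this basis, and the cause was not tested.

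**Figure D4:**
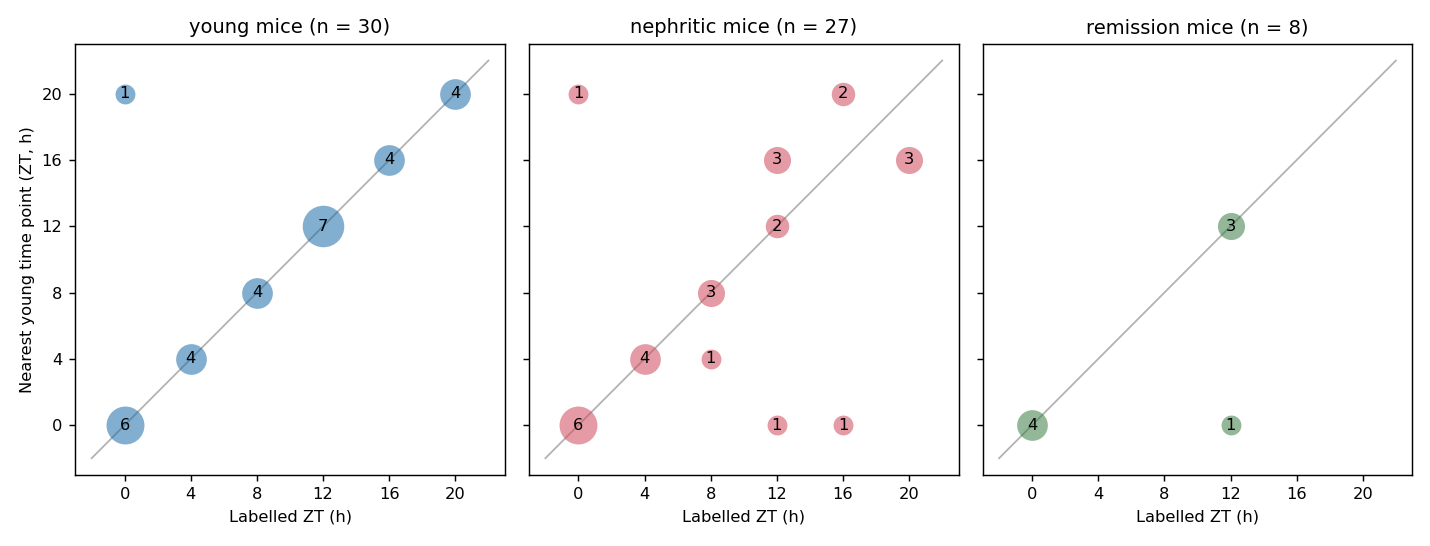
Nearest young time point over the 8 clock genes (ZT in hours) against labelled ZT for young, nephritic and remission mice, with the number of mice in each circle and a line where label and nearest time are equal. All but 1 of 30 young mice lie on the line, while the 3 nephritic mice labelled ZT20 lie at ZT16 and none of those labelled ZT16 lies on it.

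Remission mice were compared at ZT0 and ZT12 with the same times of the other groups. Arntl in remission mice was 22.9, 27.6, 28.7 and 28.9 CPM at ZT0 and 3.24, 4.204, 4.93 and 27.3 at ZT12, the last in s9. Per2 was 8.18, 10.9, 12.9 and 13.7 CPM at ZT0 and 10.4 (s9), 41.6, 63.1 and 72.5 at ZT12. Per3 was 8.03, 9.24, 11.1 and 13.9 CPM at ZT0 and 8.40 (s9), 33.4, 34.4 and 40.3 at ZT12. Mouse s9 lay within the ZT0 range of all 3 genes. Over the 8 genes it lay at 1.52 from young ZT0 and at 6.37 from young ZT12, and the other 7 remission mice lay nearest to their labels. Per1 was 30.6, 31.5, 34.3 and 35.6 CPM at ZT0 and 31.4 (s9), 54.5, 158 and 159 at ZT12. Nr1d1 had 30.2, 43.1, 48.7 and 52.8 CPM at ZT0 and 34.3 (s9), 39.2, 49.7 and 75.0 at ZT12, so that its times overlapped.

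The change between ZT0 and ZT12 passed for 7 of 8 genes in young mice, against 3.66% of genes, with a log2 difference (ZT0 minus ZT12) of 3.63 for Arntl, 0.64 for Clock, -1.81 for Per1, -2.48 for Per2, -2.78 for Per3, -0.99 for Cry1 and -1.10 for Cry2. Nr1d1 had -0.58 (adjusted p = 0.455, edgeR), and its fitted peak lies between these times. In nephritic mice 4 of 8 passed, against 3.52% of genes, Arntl (1.32, 0.0245), Per2 (-1.76), Per3 (-1.66) and Cry2 (-0.69). In remission mice 1 passed, Per2 (-2.03, 0.0447), against 0.0475% of genes, with Per3 at -1.46 (0.0599) and Arntl at 1.47 (0.317). The call of Per2 was lost when any of the 7 remission mice other than s9 was left out. Without s9 it was 5 of 8, Arntl (2.72, 2.1e-06), Per1 (-1.90), Per2 (-2.36), Per3 (-1.76) and Cry2 (-1.17), against 0.493%. Mouse s9 was picked out by these same genes, and removing a ZT12 mouse with values like those of ZT0 enlarges the change. The p-values and the count without it are therefore no independent support. DESeq2 called 3 with s9 kept. The number of clock genes called in remission mice thus changed with each mouse left out and with the tool.

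**Figure D5:**
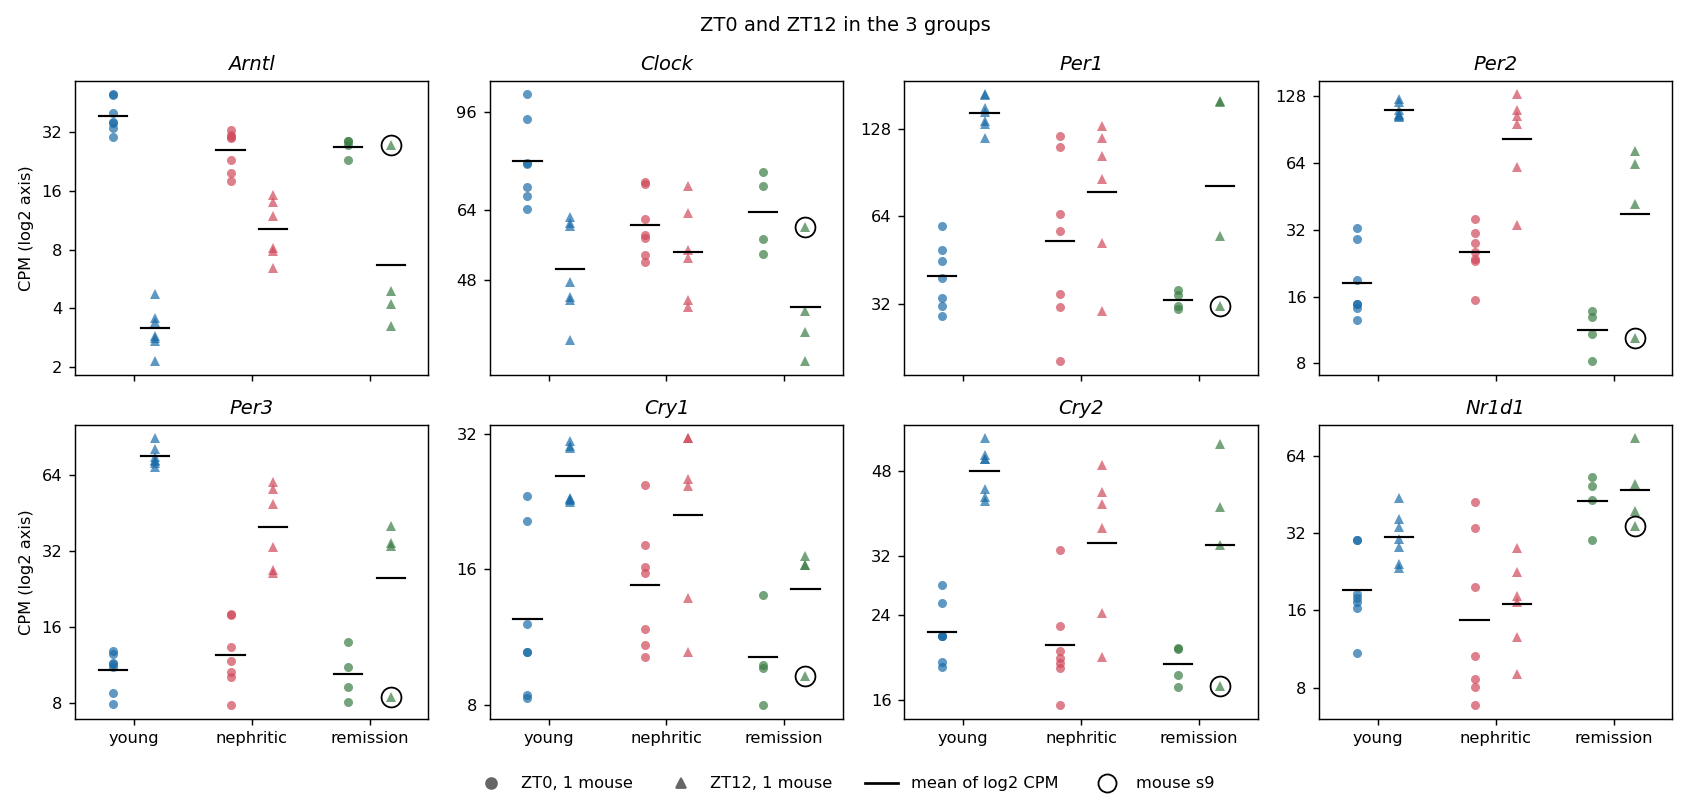
Level of each clock gene in CPM (log2 axis) at ZT0 (circles) and ZT12 (triangles) in young, nephritic and remission mice, with 1 symbol for each mouse, a bar at the mean log2 CPM and a ring on remission mouse s9. The 3 other remission mice at ZT12 have Arntl at 3.24 to 4.93 CPM, among the young values of 2.14 to 4.76 and below all nephritic values of 6.44 to 15.3, except that the highest lies just above the young range.

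The groups were then compared in that change itself. The change in Arntl was smaller in nephritic than in young mice (difference of log2 ratios -2.31, adjusted p = 0.0275, edgeR), the 1 member to pass against 0.0772% of genes. Without s9, which enters the shared spread, this was 9.77e-06 for Arntl, and Per3 passed too (1.11, 0.0399). Between remission and nephritic mice no member passed, where 0% of 16841 genes did, with 1 member at an unadjusted p under 0.05 and 3 without s9, and DESeq2 called none. Between remission and young mice no member passed in edgeR, against 0.0178% of genes, with 2 at an unadjusted p under 0.05, and DESeq2 called 1, Arntl. For Arntl the difference of log2 ratios, remission minus nephritic, was 0.15 (adjusted p = 0.956, edgeR) with s9 and 1.3997 (0.15) without it. Remission minus young, it was -2.16 (0.363) with s9 and -0.92 (0.979) without it. In edgeR the remission change was thus told apart from neither of the other groups, and its size in Arntl rested on s9.

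By level, no member differed between remission and young mice at ZT0, where 21.4% of genes did, with 2 at an unadjusted p under 0.05 and 0 called by DESeq2. At ZT12 Arntl was higher in remission (log2 difference 1.62) and Per2 (-1.25) and Per3 (-1.50) lower, against 28.6% of genes. Without s9 Arntl differed by 0.38 and did not pass, while Per2 (-0.92) and Per3 (-1.20) still did, against 24.1%. Against nephritic mice, remission mice at ZT0 had higher Nr1d1 (1.16) and lower Per1 (-1.13) and Per2 (-1.20), against 20.1% of genes. At ZT12 Nr1d1 was higher (1.33), against 22.2%. Without s9 Arntl was lower (-1.36) and Nr1d1 higher (1.47) at ZT12, against 18.8%. Higher Nr1d1 in remission than in nephritic mice was called at both times with the original libraries, and at neither with the repeat libraries. The repeat of nephritic mouse RX11RU, labelled ZT12, entered that setting with Nr1d1 at 86.6 CPM, against 18.3 in its original. Its part in the lost calls was not tested. The number of genes called fell to 0 at ZT0 without remission mouse s4 and at ZT12 without s14. In these fits the later set of the remission libraries cannot be told apart from the group. In that later set, the repeats of mice ZT0LU, ZT12RU and RX12RU had Nr1d1 0.26, 0.20 and 0.30 log2 above their originals.

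Of 20 other genes of the clock, among them partners and output factors of the loop, 15 varied with time of day in young mice, against 39.8% of all genes, and 10 in nephritic mice, against 21.6%. Between these groups 17 differed in level, against 62.1% of all genes. The rhythm differed for 5 of 20, against 6.27% of all genes. These were Npas2, a relative of Clock that can replace it (adjusted p = 3.96e-06, edgeR), Dbp, the D-box factor (0.000164), Ciart, a repressor of the Arntl and Clock pair (0.000662), Nr1d2, the sister of Nr1d1 (0.00537), and Bhlhe41, an E-box repressor (0.0191). The cosine differed for Npas2, Dbp, Ciart and Nr1d2, against 0.691% of all genes. The genes most like Arntl across the 30 young mice, among 16378 genes, were Slc16a1 (r = 0.98), Npas2 (0.97), Dtx4 (0.96), Leo1 (0.95) and Cluh (0.94). Those most opposed were Ciart (-0.96), Bhlhe41 (-0.94), Dbp (-0.94), Tns2 (-0.93) and Tef (-0.93). In the 27 nephritic mice Npas2 (0.93), Slc16a1 (0.91), Leo1 (0.91) and Dbp (-0.93) stayed within 0.1 of those values, while Dtx4 (0.75), Ciart (-0.76), Cluh (0.59), Bhlhe41 (-0.54), Tns2 (-0.46) and Tef (-0.62) lay nearer to 0. The 10 genes were chosen for their extreme r in young mice, so a value nearer to 0 in other mice is no finding. These correlations are descriptions, as the mice share their times of day.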

How the data were processed

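RNA was sequenced from poly-A libraries of whole kidney on an Illumina HiSeq. After alignment to the mouse genome, the authors deposited whole-number read counts for each gene symbol and library, with no normalization. The aligner is BWA in the study's methods and HISAT, with build mm10, in the submitters' processing notes. Uniquely mapped reads with few mismatches were counted. Columns of 69 libraries were used. These were 65 original libraries and 4 repeats of the same mice, which entered only an alternative fit. Rows with an empty symbol or cell were left out.

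From the counts, genes with at least 100 counts over the libraries of a fit were kept, library sizes were scaled by TMM, and differences were tested with edgeR 4.0.16 (quasi-likelihood F test, R 4.3.3), with the RNASeq set in the model and p-values adjusted by Benjamini-Hochberg over all genes tested (threshold 0.05). A difference in rhythm was the interaction of group with 6 time points, and a difference in cosine that of group with the 24 h terms. CPM are counts scaled to a common library size after TMM. Cosines were fitted to log2 CPM (prior count 2) with set as a covariate and delta-method errors, and amplitude, acrophase and lag were also compared by 100000 exchanges of diagnosis within time point and set. Pearson and Spearman correlations had 100000 permutations, for 28 pairs in each group, unadjusted. Tracking fits added the log2 CPM of 1 gene to time point and set. Promoters were taken from RefSeq windows. Python 3.11.15, numpy 2.4.6, scipy 1.17.1 and pandas 2.3.3 were used.

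Alternatives were DESeq2 1.42.0, limma 3.58.1, RLE scaling, no filter, no set covariate, a 12 h term, a linear scale, Set 2 alone, repeat libraries in place of the originals, other prior counts, each mouse left out in turn, and 3 added after seeing the data, which left out nephritic mouse RX10RU alone or with other mice. The models were tested on simulated data. The members, the list of other clock genes, the markers and the tests were chosen with earlier results of these data known. The genes named are the 8 members, the other clock genes listed, and the 5 genes with the highest and the 5 with the lowest r with Arntl in young mice. Groups and times came from the labels of the samples, replicates are separate mice, and depth of 13311278 to 48075977 counts a library sets the counting error.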

Additional observations from a re-analysis of the deposited data

Results flagged for a closer look

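In sets of 4 to 10 mice of 1 group and time point, a gap test was run on log2 CPM (Dixon's ratio of the gap to the range, at its 95% critical value). It marked 9 of 96 sets of values, where chance gives about 1 in 20 for independent sets. These sets share mice across genes and are not independent. On this scale Arntl was not marked in RX10RU, at 18.4 CPM, or in s9, at 27.3 CPM, though each was far above the other mice of its label. Nephritic mouse RX10RU was the lowest of 4 at ZT8 for Per2 (ratio 0.9073), Per3 (0.9313), Cry2 (0.8895) and Nr1d1 (0.8703). Remission mouse s9 was the lowest of 4 at ZT12 for Per3 (0.8814) and Cry1 (0.9245). These 2 mice account for 6 of the 9. In young mice Clock was highest in mouse ZT40 at ZT4 (0.9331) and in mouse ZT20LU at ZT20 (0.8801), and Per1 was lowest in mouse ZT4RU at ZT4 (0.8801).

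A test of the difference itself separated nephritic from young mice in the daily pattern of Arntl (adjusted p = 3.96e-06, edgeR), Per2 (0.00906) and Per3 (0.000164), in the fitted cosine of Arntl (0.000601) and Per3 (0.0205), and in the change of Arntl from ZT0 to ZT12 (0.0275). Arntl in the 3 nephritic mice at ZT8 other than RX10RU was 2.97 ± 0.84 CPM (SD, n = 3), above the 1.14 to 1.17 of the young mice. Age, disease and cell composition cannot be told apart here.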

How the results depend on the processing

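Of the counts of clock genes called, 3 for a different rhythm became 7 in Set 2 alone and 5 with DESeq2. At ZT0 2 became 1 with no filter, and in Set 2 alone the 2 called were other genes (Per2 and Cry1). At ZT4 2 became 1 with RLE scaling, no filter or DESeq2, 0 with no set covariate or with repeat libraries, 4 in Set 2 alone, 5 without RX10RU and 4 without the nephritic mice of ZT16 and ZT20 and RX10RU. At ZT8 2 became 1 with no filter, no set covariate or any of the 3 settings added after seeing the data, and 4 in Set 2 alone. At ZT16 3 became 5, and over the day 3 became 1, in Set 2 alone. For ZT0 against ZT12 in remission mice, 1 became 5 without s9, 0 with repeat libraries and 3 with DESeq2. In that change, remission against young mice went from 0 to 1 with DESeq2, and nephritic against young from 1 to 2 without s9. Remission against nephritic mice at ZT12 went from 1 to 2 without s9 or with DESeq2 and to 0 with repeat libraries. Genes that tracked Per2 went from 1 to 0 in Set 2 alone in young mice, and from 2 to 1 in Set 2 alone and 0 without RX10RU in nephritic mice. Genes that tracked Lcn2 went from 2 to 1 without the nephritic mice of ZT16 and ZT20 and RX10RU. Acrophase differences with an interval that left out 0 went from 2 to 4 with repeat libraries and to 6 in both settings that took out the dark mice, where amplitude differences went from 5 to 1. There nephritic mice cover ZT0 to ZT12 only, and peaks in the dark are extrapolated. In those settings the amplitude difference turned positive for Clock (0.0479 and 0.0465) and, with the young dark mice kept, for Per1 (0.0669). Cry1 at ZT12 turned to 0.30 (adjusted p = 0.0484, edgeR) in Set 2 alone. The cause of these changes was not tested. The repeat libraries include that of nephritic mouse RX11RU, whose clock genes differed from those of its original, as described below. Leaving out each mouse in turn gave 3 to 5 genes for a different rhythm (5 without nephritic mouse RX12RU or RX10RL), 1 to 2 at ZT0, 0 to 5 at ZT4, 1 to 3 at ZT8, 3 to 5 at ZT12, 1 to 4 at ZT16, 0 to 5 for ZT0 against ZT12 in remission mice, 1 to 2 for that change in nephritic against young mice, 0 to 3 and 0 to 2 for remission against nephritic mice at ZT0 and ZT12, and 1 (without nephritic mouse RX8LL) to 3 for acrophase differences. Arntl and Per3 were called for a different rhythm and cosine, and Per2 for a different rhythm, in every alternative run. The time-of-day call of Cry2 in nephritic mice was lost in 16 of 27 such fits. No paired analysis was possible because replicate numbers only name mice.

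Groups of 3 or 4 mice at most times limit these comparisons more than depth does, and each mouse gives a single time. The count tables give no quality measure of the RNA.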

Other observations

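The repeat libraries of 4 mice, from the same set as the remission libraries, were read beside their originals. For 3 of them, young mice ZT0LU and ZT12RU and nephritic mouse RX12RU, the 8 clock genes were close between the libraries. For nephritic mouse RX11RU, labelled ZT12, they were not. Per2 was 129.8 CPM in the original and 28.2 in the repeat, Cry1 31.4 and 3.31, and Nr1d1 18.3 and 86.6. Over all genes, the repeat was most like the library of nephritic mouse RX11LU, labelled ZT4 (r = 0.996756). Remission mouse s9, labelled ZT12, was most like remission mouse s8, labelled ZT0 (r = 0.997058). The reason for these likenesses was not tested.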
